A study of Mus musculus with 8 samples.

Results

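The Popeye domain family has 3 genes in the mouse, Popdc3, Popdc2 and Bves (also called Popdc1), and all 3 were found by name among the 54139 genes of the deposited tables. The members were chosen by the rise of Popdc3 counts in intestinal epithelial cells with deleted Rictor, the same contrast described below, so the difference of Popdc3 between genotypes is given here as a description, with no test. Popdc3 had 25 reads over the 4 control libraries and 306 over the 4 Rictor-deleted libraries. Popdc2 had 5 and 4 reads, and Bves had 0 and 1.

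The 8 RNA-seq libraries come from intestinal epithelial cells of mice. The 4 libraries called WT carry the Villin-Cre transgene alone, and the 4 called cKO carry Villin-Cre together with Rictor Flox, a Rictor allele that Cre recombinase can delete. The villin promoter drives Cre in the epithelium, so every library of both groups carries the same Cre transgene and the groups differ by the floxed allele. Rictor is an obligate component of mTOR complex 2, whose kinase activates Akt and related AGC kinases. Sources used here do not give the intestinal segment, the age and sex of the mice or the deleted exons. They also do not say that each library is a separate mouse, so p-values reflect library-to-library spread only, some of it possibly technical.

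Popeye proteins are membrane proteins with a short glycosylated outer end and a cytoplasmic Popeye domain that binds cyclic AMP (cAMP), the second messenger made by adenylyl cyclases and broken down by phosphodiesterases. They are a class of cAMP-binding protein apart from protein kinase A, the Epac exchange factors and the cyclic nucleotide-gated channels. The genes are best known in heart and skeletal muscle, where loss of family members disturbs cardiac pacemaking and muscle integrity, and Bves was also described at the junctions of epithelial cells, the gut included.

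The members are related but differ widely in sequence, as their most alike coding stretch shows. In an alignment of all 3, it was the ungapped stretch of 75 bases with the most bases identical in all 3. Only stretches inside a single exon of each gene were considered. The 3 stretches below lie in the coding sequence on the plus strand of GRCm38, each inside an exon of 109 bases, and were read from the GENCODE M21 transcripts. Capitals mark the 36 of 75 bases that are identical in all 3 genes. The Popdc3 stretch is in exon 3 of Popdc3-201 (chr10:45316433-45316507), the Popdc2 stretch in exon 2 of Popdc2-201 (chr16:38369486-38369560) and the Bves stretch in exon 5 of Bves-201 (chr10:45347787-45347861).
Popdc3: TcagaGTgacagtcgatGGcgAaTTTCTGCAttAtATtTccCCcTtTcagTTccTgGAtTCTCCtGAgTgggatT
Popdc2: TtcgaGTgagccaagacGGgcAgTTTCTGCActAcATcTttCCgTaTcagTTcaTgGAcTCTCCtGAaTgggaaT
Bves: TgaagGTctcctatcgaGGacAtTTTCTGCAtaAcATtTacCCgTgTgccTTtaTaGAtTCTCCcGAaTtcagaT

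Against Popdc3, this stretch was 70.7% identical in Popdc2 and 56.0% identical in Bves. Over the whole coding sequence, each pair was aligned separately and gaps were left out, so these values are not on the same basis as the stretch. The identity was 61.5% between Popdc3 and Popdc2, 56.3% between Popdc3 and Bves, and 57.9% between Popdc2 and Bves. Of 845 aligned columns with a base in all 3 genes, 277 (32.8%) were identical in all 3. The longest run of identical bases in any pair of member transcripts was 14, found between Popdc3 and Popdc2, and it was 12 in the other pairs. No stretch of 50 bases was therefore shared between members.

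Total counts ran from 15110451 to 18708335 per library, and between 21346 and 21727 genes were detected. Every pair of libraries differed by more than sampling noise, with a chi-square per degree of freedom of at least 10.7. Levels in CPM are reads relative to a library total scaled by a TMM factor. Rictor, the targeted gene, had 41.7, 42.4, 57.3 and 51.4 CPM in WT and 30.4, 39.6, 20.8 and 40.6 CPM in cKO. It was lower in every cKO library, by a margin of 41.7 to 40.6 CPM. Of genes with enough reads to be tested, 1.80% were separated in that direction. The log2 fold change of Rictor was -0.55 ± 0.20 (SE, edgeR adjusted p = 0.921, unadjusted p = 0.019). Its gene counts include exons outside the deleted part. Within the cKO group both Rictor and Popdc3 were lowest in library 3, while Rictor was highest in library 4 and Popdc3 in library 1. WT library 3 and cKO library 3 stood apart in earlier results of these data and were left out together as an alternative.

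Popdc3 (ENSMUSG00000019848, protein coding, chr10:45178098-45318452, plus strand of GRCm38) encodes a member whose human counterpart is mutated in a limb-girdle muscular dystrophy. In the WT libraries 1 to 4 it had 6, 6, 4 and 9 reads, which is 0.318, 0.332, 0.247 and 0.550 CPM. In the cKO libraries 1 to 4 it had 117, 65, 54 and 70 reads, or 6.93, 3.84, 3.03 and 4.49 CPM. Every cKO library lay above every WT library, with cKO library 1 the highest and WT library 3 the lowest. The lowest cKO library exceeded the highest WT library 5.51-fold, with a 95% interval of 2.70 to 12.7 that covers counting error only (exact binomial interval of the read ratio).

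The group means of Popdc3 were 0.362 ± 0.131 CPM (WT) and 4.57 ± 1.68 CPM (cKO), given as mean ± SD with n = 4 each. In FPKM, which scales reads by gene length and library total, this was 0.172 ± 0.0622 FPKM in WT and 2.17 ± 0.794 FPKM in cKO. The log2 fold change, cKO over WT, was 3.64 ± 0.37 (SE), and the ratio of the summed CPM-scaled reads was 12.7 with a counting interval of 8.41 to 19.9. That fold change ranked 3 among the 14701 genes with enough reads to be tested, of which 0.633% had a log2 fold change above 1. The same separation of the groups, upward in cKO, was found for 1.41% of tested genes. At an edgeR adjusted p under 0.05, 0.00680% of tested genes were called higher in cKO, which is 1 gene, Popdc3 itself. These shares describe the choice of the gene and are no evidence about it.

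Among tested genes, Popdc3 was near the bottom in WT and of modest level in cKO. Its mean FPKM exceeded that of 2.72% of tested genes in WT and of 31.5% in cKO. With 4 to 9 reads per WT library, Popdc3 passed the filter on low counts through its cKO libraries. Its low place in WT among tested genes therefore follows in part from that filter and is a description only. The spread within cKO was larger than counting error, since cKO library 1 exceeded cKO library 3 2.28-fold (counting interval 1.64 to 3.22). Within WT it was not distinguishable from counting error, since WT library 4 exceeded WT library 3 2.23-fold with an interval of 0.621 to 9.89. The log2 fold change stayed between 3.37 and 3.90 when each library was left out in turn. The number of genes called in the whole comparison, 2 with all libraries, was 0 without WT library 1, WT library 2 or WT library 3, and Popdc3 had log2 fold changes of 3.59, 3.60 and 3.50 there. In bulk RNA, a larger share of cells with the transcript and more transcript per cell cannot be told apart.

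**Figure D1:**
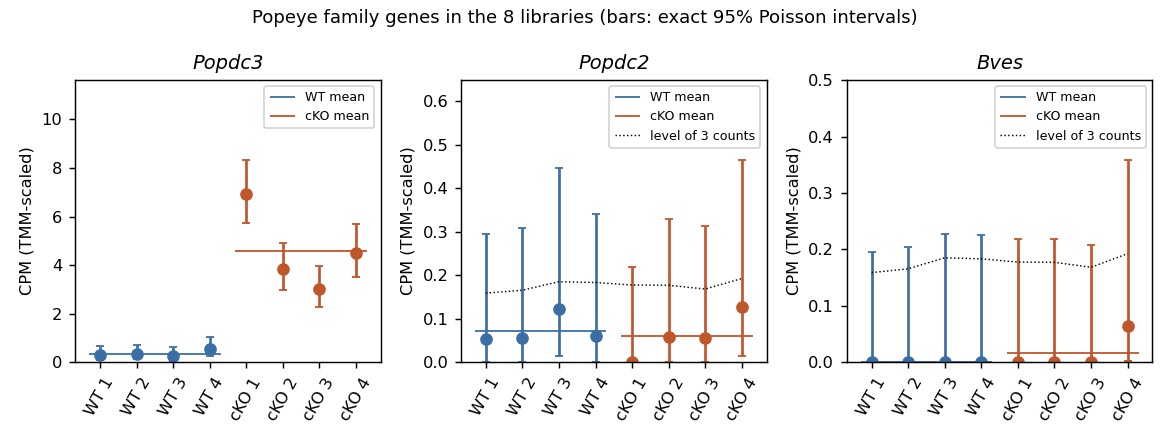
Level of the 3 Popeye genes in CPM (vertical axes, linear, with a different range in each panel), with 1 point per library, its exact 95% Poisson interval as a bar, horizontal lines for the means of the 4 WT and 4 cKO libraries and a dotted line for the level of 3 counts. Popdc3 lies between 0.247 and 0.550 CPM in WT and between 3.03 and 6.93 CPM in cKO, while every Popdc2 and Bves point is under the dotted line.

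**Figure D2:**
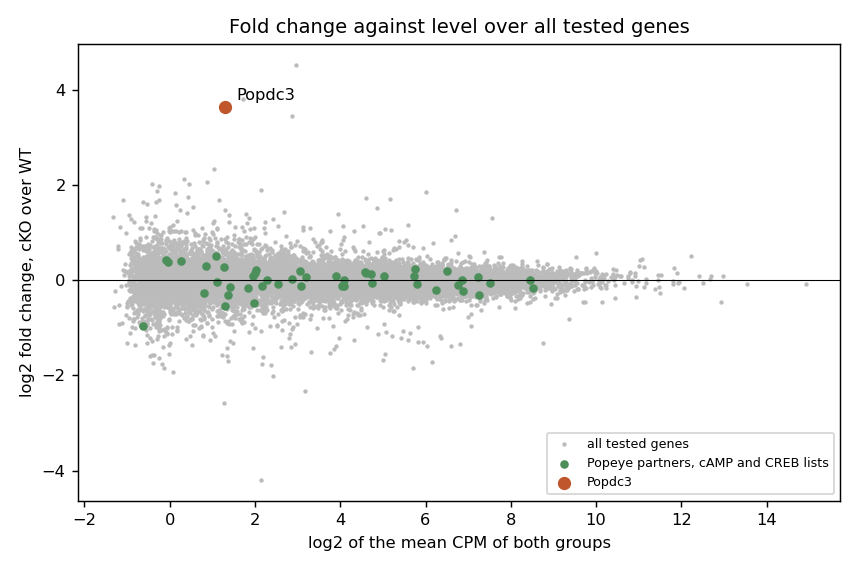
Log2 fold change (cKO over WT) against the log2 of the mean CPM of both groups for the 14701 tested genes in grey. Genes of the partner, cAMP and CREB lists are in green, except those not reported here, and Popdc3 is in orange. Popdc3 lies at a log2 fold change of 3.64 and ranks 3, and the green points lie between -0.95 and 0.51.

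Popdc2 (ENSMUSG00000022803, protein coding, chr16:38362209-38378216, plus strand) is abundant in the heart and is required there for normal pacemaking under stress. It had 1, 1, 2 and 1 reads in WT libraries 1 to 4 and 0, 1, 1 and 2 reads in cKO libraries 1 to 4. Those are 0.0307 ± 0.0141 FPKM in WT and 0.0256 ± 0.0221 FPKM in cKO (SD, n = 4 each), and the groups overlapped. Bves (ENSMUSG00000071317, protein coding, chr10:45335772-45372479, plus strand) encodes an adhesion-associated protein. It had 0 reads in 7 libraries and 1 read in cKO library 4, where its level was 0.0138 FPKM. A count of 0 allows up to 3 counts per library, which here is between 0.159 and 0.193 CPM. Every value of Popdc2 and Bves lay under that limit, neither gene passed the filter on low counts, and no fold change is given for them. A difference between the genotypes was not detectable at this depth for either gene.

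Per length, the order of mean FPKM was Popdc3, then Popdc2, then Bves in both groups, with every Popdc2 and Bves value under the level of 3 counts. The lowest WT library of Popdc3 (0.117 FPKM) was above the highest library of Popdc2 in either group (0.0540 FPKM). Bves was below Popdc2 in 7 of 8 libraries. The mean difference in log2(FPKM + 0.01), Bves minus Popdc2, was -1.61 ± 0.735 (SD, n = 8, p = 0.0156 by a two-sided exact sign-flip permutation test). Both genes had 0 reads in cKO library 1, so the difference there is 0 and a flip of its sign changes nothing. That p is thus the smallest that the other 7 libraries can give. The size of this difference is set by the pseudocount, since Bves was at 0 in 7 libraries: it was -0.32 with 0.1 and -3.85 with 0.001, at the same p. The test rests on 9 reads of Popdc2 and 1 read of Bves in all. The p was 0.0625 without WT library 3 and cKO library 3, which leaves 6 libraries, and 0.125 in the 4 WT libraries alone, the smallest that 4 can give.

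Popdc3 and Bves are neighbours on chromosome 10, in the same orientation and 17320 bases apart, while Popdc2 is on chromosome 16. The nearest tested genes on each side are Prep, a prolyl peptidase gene that ends 10900 bases before Popdc3, and Hace1, a ubiquitin ligase gene that starts 205350 bases after Bves. Between Bves and Hace1, on the minus strand and 4141 bases past the end of Bves, lies Lin28b, which encodes an RNA-binding repressor of let-7 miRNAs and had 6 reads over the 8 libraries, too few to be tested. Prep had 93.3, 89.0, 82.1 and 86.3 CPM in WT and 81.9, 82.5, 104 and 89.2 CPM in cKO. Its log2 fold change was 0.030 ± 0.11 (SE), and its sign turned without both libraries numbered 3 (-0.083). Hace1 had a mean of 30.8 CPM in WT and 27.3 CPM in cKO and a log2 fold change of -0.17 ± 0.14 (SE). The groups overlapped for both.

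Within 1 Mb of the 3 genes the table listed 80 other genes, of which 24 were tested. Of these, 12 had higher and 12 lower point estimates, with a median log2 fold change of -0.0019 against 0.0022 over all tested genes. None was called by edgeR after adjustment, against 0.0136% of all tested genes, and 1 had an unadjusted edgeR p under 0.05 (Stxbp5l, near Popdc2, at -1.02), against 3.90% of tested genes. Of all tested genes 0.653% had a log2 fold change below -1. The neighbour with the highest point estimate was Fstl1, which encodes a secreted follistatin-like glycoprotein, near Popdc2, at 2.12 ± 0.95 (SE; edgeR adjusted p = 0.921), with 0.461 CPM in WT and 2.06 CPM in cKO and groups that overlapped. DESeq2, which called 37 genes in all, called none of the 24 either. On chromosome 10, 6 neighbours were tested and lay between -0.48, an assembled locus without an Ensembl identifier, and 0.35, Prdm1, a transcriptional repressor of the suckling-type epithelium and of lymphocytes. The others near Popdc3 and Bves were Atg5, an autophagy gene, at -0.017 and the pseudogene Gpx4-ps2 at 0.013. Near Popdc2, the 3 closest tested genes before it were Nr1i2 (-0.045), Maats1 (-0.33) and Cox17 (-0.20), and the 3 closest after it were Adprh (0.16), Timmdc1 (0.12) and Poglut1 (0.049). The signs of Nr1i2 and Cox17 turned without both libraries numbered 3, that of Adprh with sample quality weights and those of Gpx4-ps2, Poglut1 and Cox17 when single libraries were left out.

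**Figure D3:**
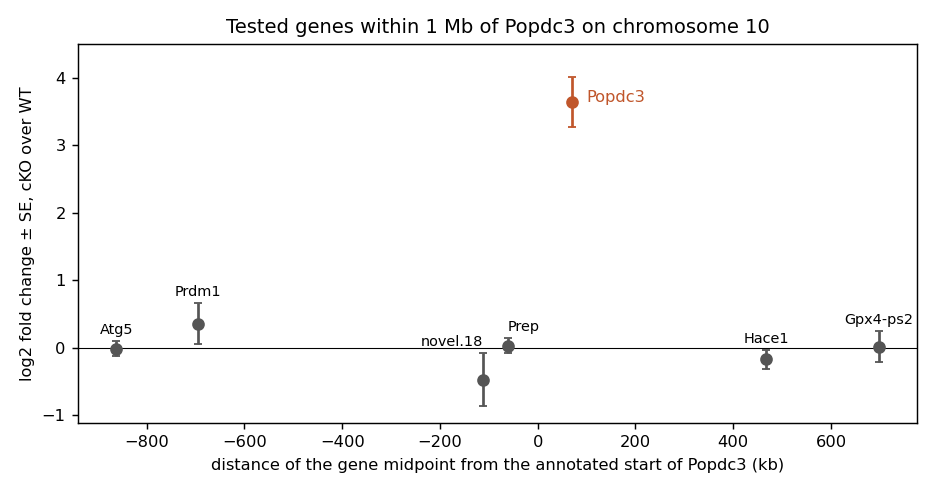
Log2 fold change (cKO over WT, bars for SE) of the tested genes within 1 Mb of Popdc3, against the distance of each gene's midpoint from the annotated start of Popdc3 in kb. Popdc3 stands at 3.64, and the 6 tested neighbours on chromosome 10 lie between -0.48 and 0.35.

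Gene counts add up reads over all exons, and they do not say which Popdc3 exons the reads came from. GENCODE M21 lists 3 transcripts of Popdc3, and the length in the deposited table, 2083 bases, equals the union of their exons. Popdc3-201, the full coding transcript, has 4 exons and 876 coding bases and starts at position 45289305. Popdc3-203 starts upstream at position 45178098 with a first exon of 95 bases, untranslated, whose every 50-base stretch also occurs in transcripts of other genes, 116 in number. Of these 116 genes 20 were tested, 11 with higher and 9 with lower point estimates, a median log2 fold change of 0.0093, and 0 called by edgeR (1 with an unadjusted p under 0.05). Of all 2080 distinct 50-base stretches of Popdc3 transcripts 118 (5.67%) occurred in another gene. Of these, 71 lay in the first exon of Popdc3-201 and are shared with Gm15934, an antisense gene that had 2 reads in all, both in cKO library 3. The coding exons of Popdc3 shared none. For Popdc2 the share was 1.70%, all with Gm21987, which had 0 reads, and for Bves it was 0. The strand setting of the counting is not stated.

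Proteins reported to bind Popeye proteins were taken as a list of 11 genes, of which 6 were tested. None was called by edgeR, against 0.0136% of all tested genes, and none by DESeq2, which called 37 genes in all. All 6 had point estimates below 0, with a median of -0.061, where 50.5% of all tested genes were above 0. That count was 4 to 6 of 6 when single libraries were left out, and it fell to 3 of 6 without WT library 3 and cKO library 3, and also to 3 of 6 with sample quality weights. Tjp1, which encodes the junction scaffold ZO-1 and binds Bves, had 162, 157, 178 and 175 CPM in WT and 127, 153, 110 and 155 CPM in cKO. The highest cKO library (155 CPM) was just under the lowest WT library (157 CPM), and 1.80% of tested genes were separated in that direction. The edgeR log2 fold change was -0.30 ± 0.13 (SE), with an adjusted p of 0.921 and an unadjusted p of 0.034, where 2.07% of tested genes were lower at an unadjusted p under 0.05. It was -0.21 without cKO library 3 and -0.15 with sample quality weights.

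Vamp3, a vesicle fusion protein bound by Bves, was at -0.10 ± 0.12, Adcy9, a cyclase described in a complex with Popdc1, at -0.066 ± 0.15, and Lrp6, a Wnt co-receptor, at -0.056 ± 0.14 (log2 fold change ± SE). Pde4a, a cAMP phosphodiesterase, was at -0.038, and Ppp2r5a, a regulatory subunit of protein phosphatase 2A, was at -0.0026. Leaving out single libraries turned the signs of Adcy9 and Lrp6. The 5 partners that were not tested were near or at 0 reads over all 8 libraries. Kcnk2, the potassium channel TREK-1 whose current Popeye proteins modulate in the heart, had 18 reads, Arhgef25 had 20 and Ndrg4 had 15. Cav3, the muscle caveolin, and Dysf, the muscle repair protein dysferlin, had 0.

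Genes of cAMP handling, Adcy9 and Pde4a of the partner list included, were listed as 44 genes, of which 31 were tested. By edgeR, 0 were called, against 0.0136% of all tested genes, and 0 had an unadjusted p under 0.05, against 3.90%. DESeq2, which called 37 genes in all, called 0 of the 31. There were 15 with higher and 16 with lower point estimates and a median log2 fold change of -0.0013. The 12 tested cAMP receptors had a median of 0.13, with 7 higher and 5 lower. They include the protein kinase A subunits Prkar2a, 386 CPM in WT and 344 CPM in cKO (-0.17 ± 0.10, SE), and Prkaca, 84.6 and 96.4 CPM (0.19 ± 0.12). The low-level subunit Prkar1b was at 0.41 ± 0.36.

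Of the adenylyl cyclases, which make cAMP, 8 of 10 were tested, 2 with higher and 6 with lower point estimates and a median of -0.10. Adcy6 was the most abundant in CPM, with 347 in WT and 348 in cKO. The 4 with the smallest p were low: Adcy5 at -0.55 ± 0.26, Adcy2 at -0.95 ± 0.48, Adcy1 at -0.31 ± 0.45 and Adcy3 at -0.14 ± 0.25 (log2 fold change ± SE). The signs of Adcy1 and Adcy3 turned without cKO library 1. Of the phosphodiesterases that degrade cAMP, 11 of 16 were tested, 6 higher and 5 lower with a median of 0.017. Pde3a had 127 CPM in WT and 108 CPM in cKO (-0.23 ± 0.12, SE), Pde7a was at 0.13 ± 0.11, Pde1c at 0.43 ± 0.44 and Pde4d at -0.11 ± 0.12.

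Genes of the CREB family and genes that cAMP can induce through it made a list of 13, of which 12 were tested. Whether their RNA levels follow cAMP in these cells was not tested. None of the 12 was called by edgeR, against 0.0136% of all tested genes, or by DESeq2, which called 37 genes in all. None had an unadjusted edgeR p under 0.05, against 3.90% of all tested genes. In the list 8 were higher and 4 lower, with a median log2 fold change of 0.083 that fell to -0.065 without cKO library 2. Crem, a cAMP-responsive repressor and activator, was at -0.49 ± 0.27, and Nr4a1, an early response receptor, at 0.51 ± 0.33 (SE). Per1, a clock gene with cAMP-responsive elements, was at 0.24 ± 0.15, and Creb1 itself was at -0.21 ± 0.17.

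**Figure D4:**
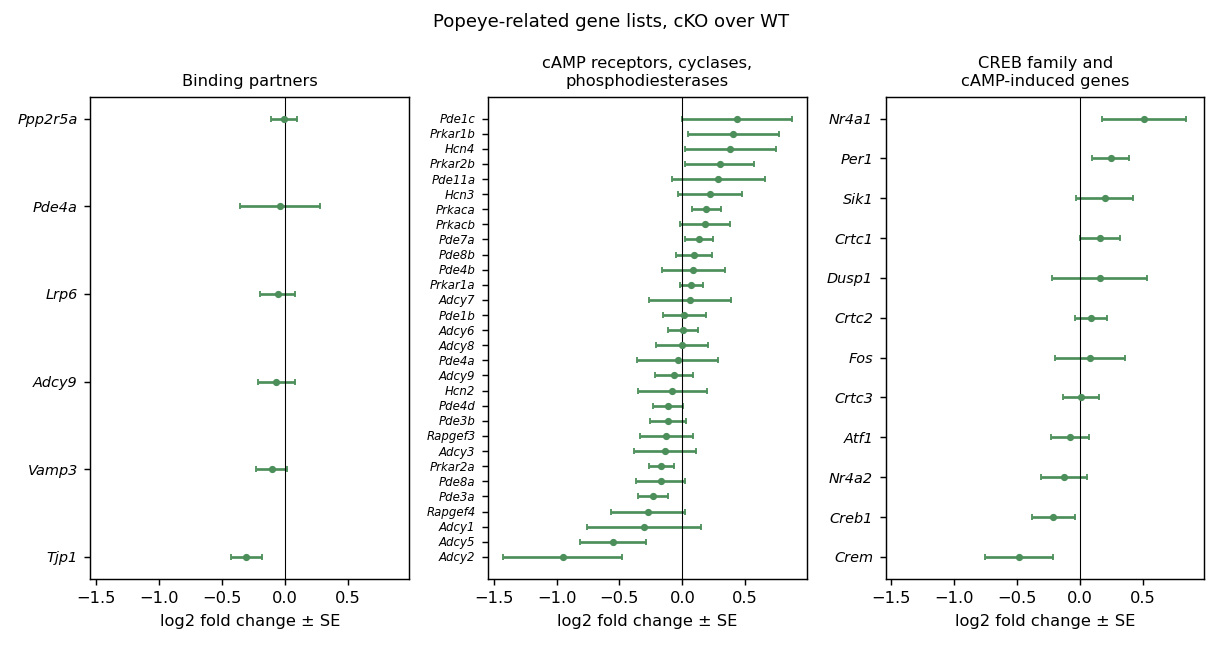
Log2 fold change (cKO over WT, bars for SE) of tested genes among the binding partners, the cAMP receptors, cyclases and phosphodiesterases, and the CREB list, with 1 point per gene and a vertical line at 0. The genes shown lie between -0.95 (Adcy2) and 0.51 (Nr4a1), and genes not reported here are left out.

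The 5 tested genes whose log2 CPM followed Popdc3 most closely over the 8 libraries were named as a description, with no test, since the libraries share the genotype difference that chose Popdc3. They were Igf2bp2 (Pearson r = 0.984), Il7r (0.953), Tmem252 (0.944), Zfp703 (0.943) and Xpnpep3 (0.942). An r of at least 0.9 was found for 16 of the 14701 tested genes. For each of the 5, the lowest cKO library was above the highest WT library, as for 1.41% of all tested genes. A choice by likeness to Popdc3, which itself separates the groups, favours such genes. After the group means were taken out the r fell to 0.867, 0.579, 0.828, 0.262 and 0.602, in the same order.

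Igf2bp2, an RNA-binding protein of the IGF2 mRNA-binding family, had 72.4, 73.5, 73.7 and 75.9 CPM in WT and 105, 90.8, 90.3 and 93.7 CPM in cKO, with cKO library 1 highest as for Popdc3. It differed by 0.36 ± 0.09 on the log2 scale (SE), at an edgeR adjusted p of 0.742. Tmem252, a transmembrane protein gene, had 28.7, 32.7, 24.3 and 35.9 CPM in WT and 66.9, 42.7, 50.7 and 53.4 CPM in cKO, at 0.81 ± 0.16 (SE; edgeR adjusted p = 0.374). Its adjusted p ranged from 0.0049 with DESeq2 to 0.897 over the alternatives. Il7r, the interleukin 7 receptor chain of lymphocytes, had 4 to 8 reads per WT library and 14 to 30 per cKO library (1.88 ± 0.38, SE; edgeR adjusted p = 0.374). Zfp703, a transcriptional repressor, went from 73.3 to 101 CPM (0.47 ± 0.09), and Xpnpep3, a mitochondrial aminopeptidase, from 13.6 to 16.2 CPM (0.25 ± 0.12). None of the 5 passed the adjusted threshold in edgeR, and DESeq2 called Tmem252 and Zfp703. Popdc2 and Bves had too few reads for such a comparison.

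**Figure D5:**
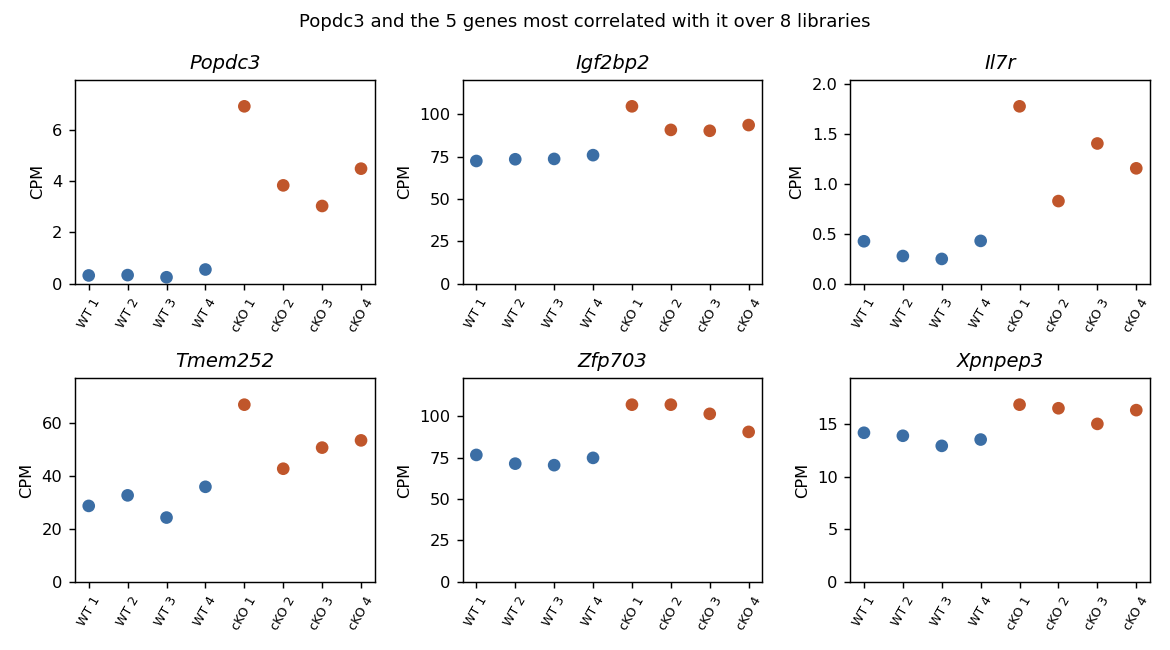
CPM (vertical axes from 0, with a different range in each panel) of Popdc3 and of the 5 genes most like it, with 1 point for each of the 4 WT libraries in blue and the 4 cKO libraries in orange. In each panel the orange points all lie above the blue ones, from 0.247 to 6.93 CPM for Popdc3 and from 72.4 to 105 CPM for Igf2bp2.

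Because Popeye genes mark muscle, the levels of muscle and other non-epithelial genes were set beside Popdc3. The 10 epithelial markers were all present, with summed levels of 11702 to 13174 CPM in WT and 11198 to 14863 CPM in cKO. The 10 smooth muscle markers summed to 177 to 229 CPM in WT and 148 to 182 CPM in cKO, most of it Mylk. Smtn had a mean of 18.2 CPM in WT and 18.9 CPM in cKO. The rest of the list had from 2 reads (Actg2 and Lmod1) to 76 reads (Tagln) over the 8 libraries, with 7 for Acta2, 19 for Myh11 and 10 for Des. The 10 striated muscle markers summed to 3.45 to 4.52 CPM in WT and to 6.99, 5.20, 3.15 and 5.33 CPM in cKO libraries 1 to 4. Of these 10, Actc1, Myh6 and Myl2 were at 0 in every library. Tested were 2, and 0 were called by edgeR, against 0.0136% of all tested genes. Acta1 averaged 2.01 CPM in the WT and 3.64 CPM in the cKO libraries (edgeR adjusted p = 0.921, unadjusted p = 0.028), where 1.83% of tested genes were higher at an unadjusted p under 0.05. The other tested marker, Tnnt2, went the other way, with 1.45 CPM in WT and 1.04 CPM in cKO (log2 fold change -0.48, edgeR adjusted p = 0.921).

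The 8 stromal markers summed to 11.3 to 17.5 CPM in WT and 13.3 to 22.6 CPM in cKO. Of these, 2 were tested with 0 called, where edgeR called 0.0136% of all tested genes. The 9 markers of enteric nerve and pacemaker cells summed to 44.8 to 61.4 CPM in WT and 48.0 to 67.4 CPM in cKO, and 4 were tested with 0 called. All 11 T cell markers had higher point estimates in cKO and 0 were called, with summed levels of 206, 163, 301 and 543 CPM in WT libraries 1 to 4 and 494, 209, 676 and 236 CPM in cKO libraries 1 to 4. The library with the highest T cell sum, cKO library 3, had the lowest Popdc3 level of the cKO group. WT library 4 had both the highest T cell sum (543 CPM) and the highest Popdc3 level (0.550 CPM) of the WT group. In cKO, library 1, with 494 CPM of T cell markers, had the highest Popdc3 level (6.93 CPM), and library 2, with 209 CPM, had 3.84 CPM. The part of these markers in the Popdc3 difference was not tested further.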

How the data were processed

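Tables of 2 units for 4 WT and 4 cKO libraries were used. The authors deposited whole-number read counts per gene and FPKM per gene, which per the series' design text came from Hisat2 followed by Stringtie. The software versions, build, counting program and strand setting were not given in the sources used here. Every column of per-sample values was mapped to a sample by its name.

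Counts were tested with edgeR 4.0.16 (R 4.3.3; robust quasi-likelihood fit, TMM factors, filterByExpr, 14701 of 54139 genes), with a term for genotype only, and p-values were adjusted by Benjamini-Hochberg over the tested genes (threshold 0.05). Deposited FPKM were used for levels per length. Alternatives were other size factors and filters, leaving out libraries, the replicate number as a block, DESeq2 1.42.0, limma 3.58.1 voom with quality weights, and limma on log2(FPKM + 0.1) and log2(FPKM + 1). Coordinates are those of the deposited table, which match GENCODE M21 on GRCm38 for the 3 genes. Coding sequences were aligned with MAFFT 7.526 and compared with Biopython 1.88. The edgeR step was tested on simulated data.

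The members and gene lists were chosen with earlier results of these data known. Genes were named by rule: the members and Rictor, the 4 tested genes of each list with the smallest p, the 3 nearest tested genes on each side of a member, genes that overlap one, and the 5 genes most correlated with a member that had a mean of at least 5 counts. Other genes were named after their values were seen: Pde4a, Ppp2r5a, Adcy6, Stxbp5l, Fstl1, Lin28b, Atg5, partners without a test and markers. Some genes of the lists are counted in them but are not reported here.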

Additional observations from a re-analysis of the deposited data

Results flagged for a closer look

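In 92 groups of 4 libraries examined, 6 had a library that stood far from the other 3, where chance gives about 1 in 20. For the Popeye family, Bves had 0.0642 CPM in cKO library 4 and 0 in the other cKO libraries, which is 1 read. Popdc2 had 0.124 CPM in WT library 3 against 0.0530 to 0.0611 CPM in the other WT libraries, which is 2 reads against 1. Among the neighbouring genes, Gpx4-ps2 had 50.4 CPM in WT library 3 against 26.5 to 29.7 CPM, and Adprh had 29.3 CPM in WT library 4 against 31.0 to 31.2 CPM. Epithelial markers summed to 13174 CPM in WT library 3 against 11702 to 11931 CPM, and enteric nerve markers to 67.4 CPM in cKO library 2 against 48.0 to 51.2 CPM.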

How the results depend on the processing

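Popdc3 was chosen because it rose in these same libraries, so its direction under the alternatives is a description and no support. Its log2 fold change kept its direction under every alternative run. It was 3.37 to 3.90 when single libraries were left out, 3.03 on log2(FPKM + 0.1), whether or not genes under a mean of 0.5 FPKM were dropped, and 1.41 on log2(FPKM + 1), where the pseudocount exceeds the WT level. Among all tested genes, 2 were called. The count was 10 with no filter, 37 with DESeq2, 4 without both libraries numbered 3, 1 on log2(FPKM + 0.1), 0 on log2(FPKM + 1), 0 with the FPKM minimum, and 0 to 3 when single libraries were left out. At an unadjusted p under 0.05 edgeR gave 529, 424 and 648 genes without WT libraries 1, 2 and 3, where the count was 0, and limma gave 610 on log2(FPKM + 1) and 568 with the FPKM minimum. The cause of these shifts was not tested.

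With the replicate number as a block 0 genes were called (554 at an unadjusted p under 0.05) and Popdc3 was at 3.62. Libraries of the same number had correlated deviations of -0.108, 0.108, 0.152 and 0.138, and 4 of 8 libraries correlated best with their own number, so the numbers were not taken as pairs.

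No partner, cAMP, CREB or neighbouring gene was called under any alternative, where at most 37 genes were called in all. The cAMP median was -0.047 without both libraries numbered 3, -0.070 with sample quality weights, and -0.080 to 0.044 when single libraries were left out, where the CREB median was -0.065 to 0.17. The difference of Bves from Popdc2 was -0.32 with a pseudocount of 0.1 and -3.85 with 0.001 (exact p = 0.0156 each), -1.41 (exact p = 0.0625) without both libraries numbered 3, -1.97 (exact p = 0.125) in WT alone, and -1.83 to -1.46 when single libraries were left out.

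Of 37 named genes, 11 changed sign somewhere. When single libraries were left out, Adcy9 ranged from -0.18 to 0.0045, Gpx4-ps2 from -0.14 to 0.28, Poglut1 from -0.017 to 0.14, Prep from -0.053 to 0.076, Adcy1 from -0.59 to 0.023, Adcy3 from -0.21 to 0.00075, Lrp6 from -0.13 to 0.062 and Cox17 from -0.35 to 0.012. Without both libraries numbered 3, Lrp6 was 0.095, Prep -0.083, Nr1i2 0.015 and Cox17 0.11. With quality weights, Lrp6 was 0.040, Prep -0.049, Hace1 0.012 and Adprh -0.020. Tmem252 passed the threshold with no filter (edgeR adjusted p = 0.017) and with DESeq2 (0.0049), as did Zfp703 with DESeq2 (0.0029). Fewer than 3 reads per library limit what Popdc2 and Bves can show.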
